A study of Homo sapiens with 6 samples.

Results

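The genes described here are the G1 cyclins CCND1, CCND2, CCND3, CCNE1 and CCNE2, the kinases CDK2, CDK4 and CDK6 that these cyclins activate, and the CDK inhibitors CDKN1B and CDKN2C. They were chosen by gene symbol, with earlier results of these data known. Each of the 10 symbols matched 1 of the 57820 rows of the gene table. RNA was sequenced from M14, a human melanoma cell line that carries a doxycycline-inducible shRNA against STAG2, a subunit of the cohesin complex. Cells of this 1 line were cultured for 5 days with doxycycline (KD) or without it (WT), with 3 libraries in each condition. The paper's methods state that stable populations were kept under hygromycin, blasticidin or puromycin, without naming the drug for these cells. Every library came from cells holding the shRNA construct, so KD and WT differed in doxycycline as well as in STAG2, and no library of a control shRNA with doxycycline was analysed here. The study describes its replicates as independent biological samples, while the labels do not say how the cultures were separated.

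Progress through G1 depends on cyclins that accumulate and bind cyclin-dependent kinases. The D cyclins activate CDK4 and CDK6, which phosphorylate the retinoblastoma protein RB1 and its relatives, and the E cyclins with CDK2 extend this phosphorylation so that E2F factors switch on the genes of S phase. The inhibitor p18, encoded by CDKN2C, binds CDK4 and CDK6, whereas p27, encoded by CDKN1B, acts mainly on CDK2 complexes. In melanoma the D cyclin and CDK4 axis lies downstream of BRAF and MAPK signaling and is often altered.

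Library totals ran from 24895998 to 35181733 expected counts. Levels are given as CPM, the count divided by a library size that edgeR's TMM method adjusts for composition. STAG2, the targeted gene, was at 66.5, 34.8 and 28.8 CPM in WT replicates 1 to 3 and at 16.0, 7.31 and 6.69 CPM in KD replicates 1 to 3. It was lower in every KD library, by a log2 fold change of −2.12 (SE 0.43, adjusted p = 0.0342). Adjusted p-values are Benjamini-Hochberg values over 15605 tested genes, from the quasi-likelihood test of edgeR unless another tool is named. Leaving out WT replicate 2, WT replicate 3, KD replicate 2 or KD replicate 3 gave STAG2 adjusted p-values of 0.0757, 0.0652, 0.168 and 0.152. All 9 melanocyte lineage markers checked were at 1 CPM or more in every library. Of 10 markers of other cell types 3 were as well, namely CD68, COL1A1 and VWF. COL1A2, DCN and KRT14 reached 1 CPM in some libraries only. CD3E was at 0 in every library, PECAM1 was not matched, and PTPRC and KRT5 were at 0.582 CPM or less in each library. Of the 9 melanocyte markers, 1 was lower in KD without the replicate block described below (S100B, log2 fold change −1.35, adjusted p = 0.00949, edgeR), against 0.839% of tested genes. With the block 6 were lower, against 4.42%. Without it TYR had 0.35 and S100A1 −0.04 (adjusted p = 0.792 and 0.967, edgeR). Among the markers of other cell types, the macrophage marker CD68 had a mean of 33.5 CPM in WT and 101 CPM in KD (log2 fold change 1.59, adjusted p = 0.00855, edgeR). The fibroblast marker COL1A1 was at 2.66, 85.1 and 58.1 CPM in WT and 1.4, 19.4 and 17.7 CPM in KD, and was lower with the block (−1.67, adjusted p = 0.00232, edgeR). The summed level of the markers of other cell types was 33.4 to 137.6 CPM in WT and 113.4 to 130.6 CPM in KD. Replicate 1 stood apart in both conditions. The summed level of the melanocyte markers was 6499 CPM in WT replicate 1 against 2042 and 2062 CPM in the other WT libraries, and 2736 CPM in KD replicate 1 against 1368 and 1465 CPM in the other KD libraries. WT replicate 1 also had 5.07% of its counts in mitochondrial genes, where the others had between 2.12% and 2.94%. It had 20646 genes above 0 from the smallest library total. The other libraries had from 16028 such genes, in KD replicate 1, to 17995, in KD replicate 2. By these measures WT replicate 1 and KD replicate 1 were not alike. The part of these differences in the results below was not tested. Since libraries with the same replicate number deviated together, values are also given from a fit in which the replicate number is a block.

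CCND1 and CCND3 were above WT in each KD library, and CDK4, CDK6 and CCNE2 were below WT in each KD library. For these 5 of the 10 genes the conditions did not overlap, which held for 22.3% of the genes tested, with 11.8% higher and 10.5% lower in KD. All 10 genes entered the test. Since they were chosen with earlier results of these data known, the shares of all tested genes beside the counts give scale only. In the edgeR fit without the replicate block, 0 of the 10 passed an adjusted p of 0.05, a threshold that 2.59% of tested genes passed. At an unadjusted p under 0.05 there were 3, namely CCND1, CCND3 and CDK6, against 14.8% of tested genes, and DESeq2 (6.28% of tested genes) and limma-voom (2.64%) without the block also called 0. With no filter on low counts, CCND1 and CCND3 passed without the block (adjusted p = 0.0141 and 0.0269, edgeR), as did 4.54% of 24277 genes. Their log2 fold changes were 0.88 and 0.78 there, beside 0.88 and 0.79 with the filter. The SE was 0.25 against 0.37 for CCND1 and 0.24 against 0.28 for CCND3. These passes came with a smaller SE and not with a larger change, so they are no separate support for a rise. With the replicate block in edgeR, 4 of the 10 passed, against 9.52% of tested genes. CCND1 and CCND3 rose, where 5.1% of tested genes rose, and CDK6 and CDKN2C fell, where 4.42% fell. With the block DESeq2 called 5 of the 10 and limma-voom 4, each against 14.2% of tested genes. Leaving out the pair of replicate 1, 2 or 3 from the blocked edgeR fit left 3 calls each time, against 9.01%, 7.8% and 9.42% of tested genes. These fits hold few libraries, so their p-values rest mostly on the spread pooled over all genes and check the calls only weakly. For CCND1 the unadjusted p was 0.000713 with every pair and 3.73e-08 without replicate 2 (blocked edgeR). The same limit holds for the fits below with a pair left out. In bulk libraries, fewer cells in a phase of the cycle and less RNA per cell cannot be told apart. The median log2 fold change over the 10 genes was −0.040, beside −0.026 over all tested genes. This median counts CCND2, which was close to absent. Without CCND2 the middle value was that of CDK2, −0.24.

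**Figure D1:**
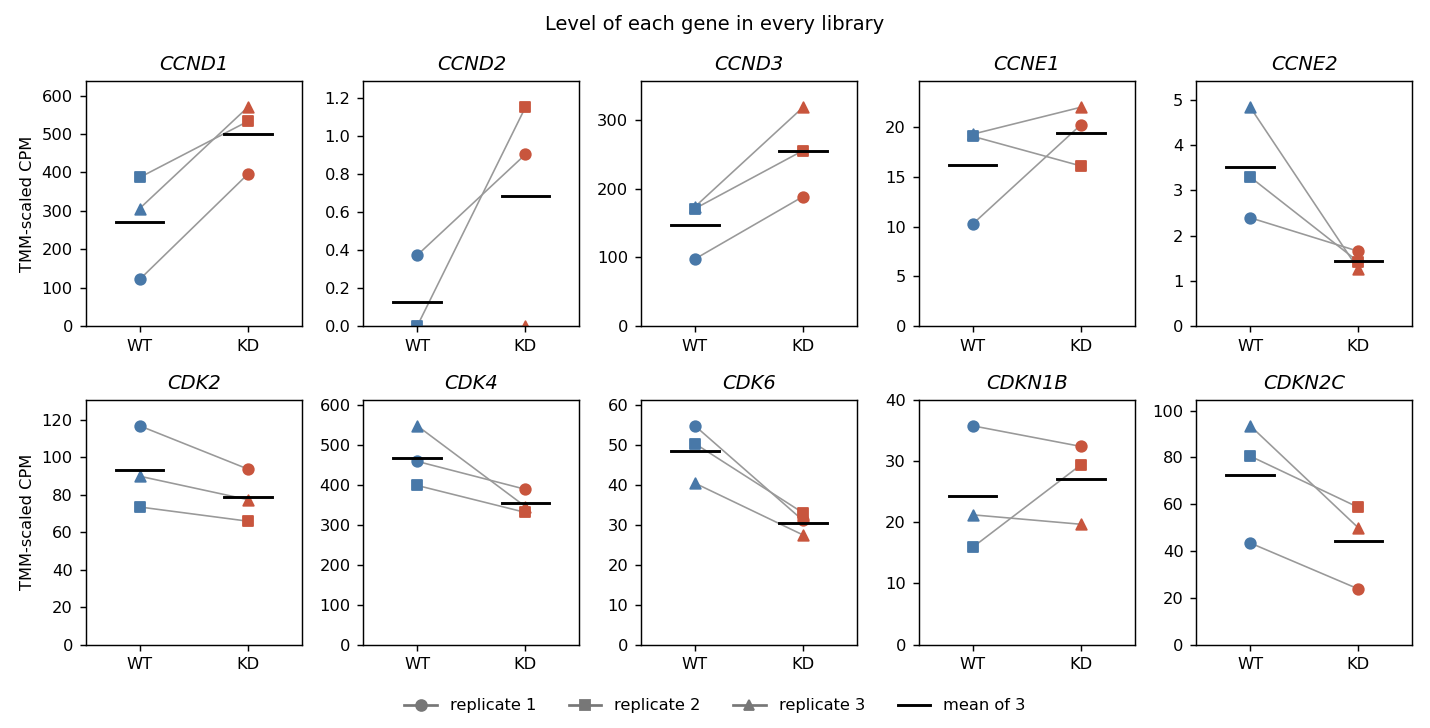
TMM-scaled CPM of each of the 10 genes in the 3 WT and 3 KD libraries, each panel on its own linear axis from 0; markers and joining lines show the replicate number, and the black bar is the mean of 3. CCND1 and CCND3 lie higher in KD than in WT in all 3 pairs, CDK4, CDK6, CDK2, CCNE2 and CDKN2C lie lower in all 3 pairs, and CCND2 reaches 1.15 CPM at most.

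The set of RefSeq promoter sequences used here held 6 of the 10 genes, CCND3, CCNE1, CDK4, CDK6, CDKN1B and CDKN2C. CCND1, CCND2, CCNE2 and CDK2 were missing from that set, so their promoters were not searched. The 250 bases before the annotated start are printed for the 3 of them that passed the test with the replicate block, so that the sequence context of a cyclin that rose can be set beside that of a kinase and an inhibitor that fell. Capitals mark the GC box GGGCGG on either strand, the letters bound by SP1 and related factors. The positions are on GRCh38.p14, a different build from that of the counts: chr6:42048689-42048938 on the minus strand for CCND3, chr7:92836574-92836823 on the minus strand for CDK6 and chr1:50960495-50960744 on the plus strand for CDKN2C.
CCND3: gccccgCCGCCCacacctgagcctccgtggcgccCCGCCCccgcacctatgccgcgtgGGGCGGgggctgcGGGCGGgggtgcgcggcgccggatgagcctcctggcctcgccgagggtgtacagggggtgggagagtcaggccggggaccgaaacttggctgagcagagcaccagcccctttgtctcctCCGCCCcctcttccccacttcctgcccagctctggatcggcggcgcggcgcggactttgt
CDK6: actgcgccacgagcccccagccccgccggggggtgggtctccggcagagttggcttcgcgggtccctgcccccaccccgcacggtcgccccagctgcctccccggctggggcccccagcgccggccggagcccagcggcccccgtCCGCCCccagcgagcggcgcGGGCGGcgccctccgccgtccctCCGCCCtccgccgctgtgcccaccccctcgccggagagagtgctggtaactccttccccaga
CDKN2C: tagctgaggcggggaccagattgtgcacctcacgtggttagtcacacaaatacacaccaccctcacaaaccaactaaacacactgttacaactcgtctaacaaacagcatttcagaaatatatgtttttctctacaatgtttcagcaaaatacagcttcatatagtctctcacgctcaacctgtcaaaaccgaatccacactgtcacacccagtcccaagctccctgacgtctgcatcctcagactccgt

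The windows of CCND3 and CDK6 were rich in G and C, at 74.4% and 80.0%, where the median of all promoters in the table was 58.0%, and that of CDKN2C had 45.6%. CCND3 held 5 GC boxes and CDK6 held 3, CDKN2C held 0, and 42.6% of 35116 promoter windows of this length held at least 1. Among the genes not printed, CCNE1 held 7, CDK4 held 3 and CDKN1B held 1. CDKN1B also held 2 CCAAT letters, found in 32% of all windows on either strand. The E2F letters TTTCCCGC, TTTGGCGC, TTTCGCGC and TTTGCCGC, the cAMP response element TGACGTCA and the AP-1 letters TGANTCA were searched on both strands and occurred in none of the 6 windows. They occurred in 2.79%, 1.65% and 6.57% of all windows. A gene can start at several places, and only the first listed start of each gene was searched. The gene-level counts do not tell which start was used, so these windows may not be those of the starts in use.

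CCND1 encodes cyclin D1, the D cyclin best known as a target of MAPK signaling (ENSG00000110092, chromosome 11 of GRCh37, 69455924 to 69469242, plus strand). It was at 121, 387 and 306 CPM in WT replicates 1 to 3 and at 395, 533 and 569 CPM in KD replicates 1 to 3. KD replicate 1, the lowest KD library, was only just above WT replicate 2, and WT replicate 1 was far below the other libraries. With the replicate block CCND1 rose by a log2 fold change of 1.02 (SE 0.21, adjusted p = 0.0148, edgeR), and without it the value was 0.88 (SE 0.37, adjusted p = 0.308, edgeR). Within the replicate pairs the log2 ratios of KD to WT were 1.71, 0.46 and 0.90. Without WT replicate 1 the unblocked value was 0.52 (adjusted p = 0.278, edgeR). Without both libraries of replicate 1 the blocked value was 0.69 (adjusted p = 0.0204, edgeR). LTO1 on the opposite strand shares 497 of the 4761 exon bases of CCND1 and was at 8.62 to 11.1 CPM in WT and 14.8 to 19.0 CPM in KD.

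CCND3 encodes cyclin D3 (ENSG00000112576, chromosome 6, 41902672 to 42018095, minus strand), whose promoter window is the first of the 3 printed. Its level was 97.7, 171 and 174 CPM in WT and 189, 256 and 319 CPM in KD. The groups did not overlap, and replicate 1 was again the lowest library of each condition. The log2 fold change was 0.80 with the replicate block (SE 0.15, adjusted p = 0.00739, edgeR) and 0.79 without it (SE 0.28, adjusted p = 0.208, edgeR). Its pair ratios were more alike than those of CCND1, at 0.95, 0.58 and 0.88 on the log2 scale. CCND3 was the only gene of the 10 that also passed without the block when both libraries of replicate 1 were left out (log2 fold change 0.74, adjusted p = 0.0468, edgeR), where 4.73% of genes passed. Replicate 1, which stood apart in these data, was the only pair left out in a fit without the block. Whether CCND3 would pass without another pair was therefore not tested.

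CCND2, for cyclin D2 (ENSG00000118971, chromosome 12, 4378937 to 4414519, plus strand), was close to absent. It had 10, 0 and 0 expected counts in WT and 29, 34 and 0 in KD, where 3 counts correspond to 0.0853 to 0.121 CPM of unscaled library size. Libraries at 0 occurred in both conditions, and no fold change is given.

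Summed over the 3 D cyclins, the level was 219, 558 and 479.5 CPM in WT and 585, 790 and 888 CPM in KD, with no overlap. The sum is mostly CCND1 and CCND3. Divided by gene length, CCND1 made up 67.1% ± 6.69 of the D cyclin level in WT and 70.5% ± 1.85 in KD (SD, n = 3 each), a difference of 3.44 percentage points (exact permutation test, two-sided, p = 0.6, with 0.1 the smallest p that 3 against 3 allows). Without WT replicate 1, in which CCND1 was 59.9% of the level, the difference was −0.124 points. The share of CCND3 was 32.9% ± 6.64 in WT and 29.4% ± 1.91 in KD (SD, n = 3 each), a difference of −3.47 points (exact permutation p = 0.6) that became 0.0612 points without WT replicate 1. CCND2 stayed at or below 0.11% of the level in every library. These shares overlapped between the conditions, and the design could not have brought any of them under 0.05.

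The E cyclins bind CDK2 late in G1. CCNE1 (ENSG00000105173, chromosome 19, 30302898 to 30315219, plus strand) was at 10.2, 19.1 and 19.3 CPM in WT and 20.2, 16.1 and 22 CPM in KD. The conditions overlapped and the pairs disagreed, with log2 ratios of 0.98, −0.25 and 0.19. The log2 fold change was 0.26, with a 95% interval from −0.43 to 0.95 (adjusted p = 0.795, edgeR).

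CCNE2 (ENSG00000175305, chromosome 8, 95891998 to 95908906, minus strand) was at 2.40, 3.30 and 4.84 CPM in WT and 1.65, 1.42 and 1.25 CPM in KD. Each KD library was below each WT library, but only 41.0 to 133 expected counts per library stood behind these levels. The log2 fold change was −1.28, with a 95% interval from −2.64 to 0.08 (adjusted p = 0.374, edgeR), and it did not pass with the replicate block either (adjusted p = 0.349). Per length, CCNE1 was 88.4%, 91.2% and 87.7% of the E cyclin level in WT and 95.6%, 95.3% and 96.9% in KD. This share was higher in each KD library than in any WT library, with a two-sided exact permutation p of 0.1, as low as the design can go. Exons of INTS8 on the opposite strand cover 1629 of the 4397 exon bases of CCNE2, and INTS8 was at 14.4, 8.94 and 7.54 CPM in WT and 20.2, 8.73 and 7.73 CPM in KD. The libraries were directional, and the strand setting of the counting is not given in the sources used here, so reads of this overlap cannot be told apart with certainty.

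CDK6 (ENSG00000105810, chromosome 7, 92234235 to 92465887, minus strand), a partner of the D cyclins, had the smallest p of the 10 genes without the block. It was at 54.9, 50.4 and 40.5 CPM in WT and 31.1, 33.0 and 27.5 CPM in KD. The groups were well separated and the KD libraries were close together. The log2 fold change was −0.66 with the replicate block (SE 0.17, adjusted p = 0.0362, edgeR) and −0.67 without it (SE 0.21, adjusted p = 0.151, edgeR), and the pair ratios were −0.82, −0.61 and −0.56. In the blocked fit with one replicate pair left out, the adjusted p was 0.0802 without replicate 1, 0.131 without replicate 2 and 0.0474 without replicate 3. Among 8916 other genes with a mean of at least 10 CPM, the log2 levels most like those of CDK6 over the 6 libraries were those of TRIB2 (Pearson r = 0.997), LINC00657 (r = 0.985) and DCP2 (r = 0.985). With 6 libraries in 2 conditions and this many genes, such values are a description of these libraries.

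CDK4, the other partner of the D cyclins (ENSG00000135446, chromosome 12, 58141510 to 58149796, minus strand), was at 459, 399 and 549 CPM in WT and 389, 331 and 346 CPM in KD. Each KD library was below each WT library, with a narrow gap between KD replicate 1 and WT replicate 2. Its log2 fold change was −0.40, with a 95% interval from −0.85 to 0.05 (adjusted p = 0.406, edgeR), and −0.39 with the replicate block (adjusted p = 0.134, edgeR). With the replicate block CDK4 passed in DESeq2 (adjusted p = 0.0419) and not in limma-voom (adjusted p = 0.0552). TSPAN31 on the opposite strand shares 1369 of the 3094 exon bases of CDK4 and was at 25.9 to 46.0 CPM over the 6 libraries. CDK4 made up 97.4% ± 0.688 of the summed CDK4 and CDK6 level per length in WT and 97.9% ± 0.279 in KD (SD, n = 3 each, exact permutation p = 0.4).

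CDK2, the kinase of the E cyclins (ENSG00000123374, chromosome 12, 56360565 to 56366573, plus strand), was at 117, 73.5 and 90.0 CPM in WT and 93.9, 65.9 and 77.5 CPM in KD. The conditions overlapped, although KD was lower in all 3 pairs by a similar amount, with log2 ratios of −0.32, −0.16 and −0.22. The log2 fold change was −0.24, with a 95% interval from −0.75 to 0.27 (adjusted p = 0.735, edgeR), and −0.06 without WT replicate 1. The pigment gene PMEL lies on the opposite strand and shares 89 of the 3887 exon bases of CDK2. PMEL was at 3370, 662 and 684 CPM in WT and 1254, 358 and 364 CPM in KD, so replicate 1 was the highest library of each condition for both genes. Whether any PMEL reads were counted for CDK2 was not tested.

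CDKN2C (ENSG00000123080, chromosome 1, 51426417 to 51440306, plus strand), for the CDK4 and CDK6 inhibitor p18, was at 43.4, 80.6 and 93.5 CPM in WT and 23.7, 58.6 and 49.9 CPM in KD. The conditions overlapped because WT replicate 1 was below KD replicates 2 and 3, but within each pair KD was lower, by log2 ratios of −0.87, −0.46 and −0.91. With the replicate block the log2 fold change was −0.74 (SE 0.17, adjusted p = 0.0210, edgeR), and without it −0.72 (SE 0.37, adjusted p = 0.423, edgeR). The unblocked value was −0.41 without KD replicate 1 and −0.98 without WT replicate 1 or KD replicate 2. The blocked adjusted p was 0.0450 without replicate 1, 0.0207 without replicate 2 and 0.0627 without replicate 3.

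CDKN1B (ENSG00000111276, chromosome 12, 12838432 to 12875303, plus strand), for p27, was at 35.7, 15.9 and 21.2 CPM in WT and 32.4, 29.3 and 19.6 CPM in KD. The ranges overlapped over most of their length, and KD was higher in 1 of 3 pairs. The log2 fold change was 0.16, with a 95% interval from −0.58 to 0.90 (adjusted p = 0.895, edgeR), so these libraries leave room for a change in either direction.

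**Figure D2:**
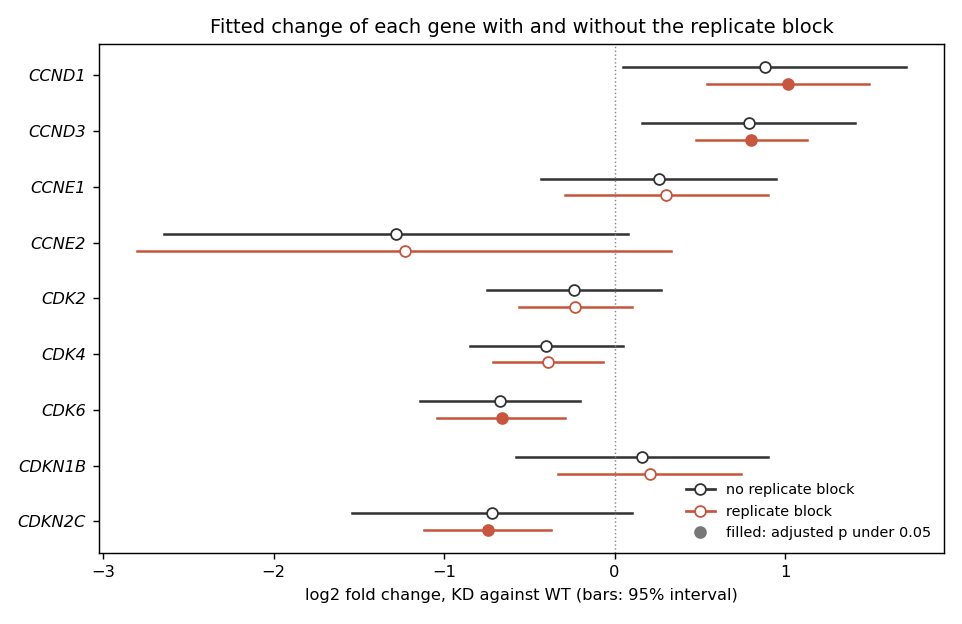
Log2 fold change of KD against WT (x axis) from edgeR for 9 of the 10 genes, with bars for the 95% interval, without (black) and with (red) the replicate block; filled points have an adjusted p under 0.05. The points of the fits lie close together, from 0.88 and 1.02 for CCND1 to −1.28 and −1.23 for CCNE2, and the interval of the blocked fit is narrower for every gene drawn but CCNE2. CCND2 was left out because 3 of its libraries are at 0.

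Levels were compared between genes as CPM per kb of annotated exon. In WT, CDK4 was the highest at 151.6 ± 24.3, followed by CCND1 at 57.0 ± 28.6, CCND3 at 25.6 ± 7.50, CDK2 at 24.1 ± 5.64 and CDKN2C at 24.0 ± 8.62 (SD, n = 3 each). From CCND1 to CDKN2C, the ranges of neighbours in this order overlapped. Then came CCNE1 at 6.59 ± 2.10, CDK6 at 3.97 ± 0.602 and CDKN1B at 2.62 ± 1.11, again with overlapping neighbours, and below these CCNE2 at 0.799 ± 0.281 and CCND2 at 0.0155 ± 0.0269 CPM per kb (SD, n = 3 each), both apart from their neighbours.

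In KD the order had CDK4 at 115 ± 9.75 and CCND1 at 105 ± 19.3 CPM per kb with overlapping ranges, whereas in WT each library had CDK4 above CCND1. CCND3 at 44.2 ± 11.3 stood clear of both CCND1 and CDK2, which was at 20.4 ± 3.61 CPM per kb (SD, n = 3 each). CDKN1B at 2.93 ± 0.718 and CDK6 at 2.50 ± 0.230 CPM per kb exchanged places, with overlapping ranges (SD, n = 3 each). With the longest transcript as the length, CDK4 in KD did not overlap CCND1, CCND1 overlapped CCND3, and the mean of CDKN1B was above that of CDK6 in both conditions, with ranges that overlapped in WT and not in KD, so these neighbours depend on the length used.

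**Figure D3:**
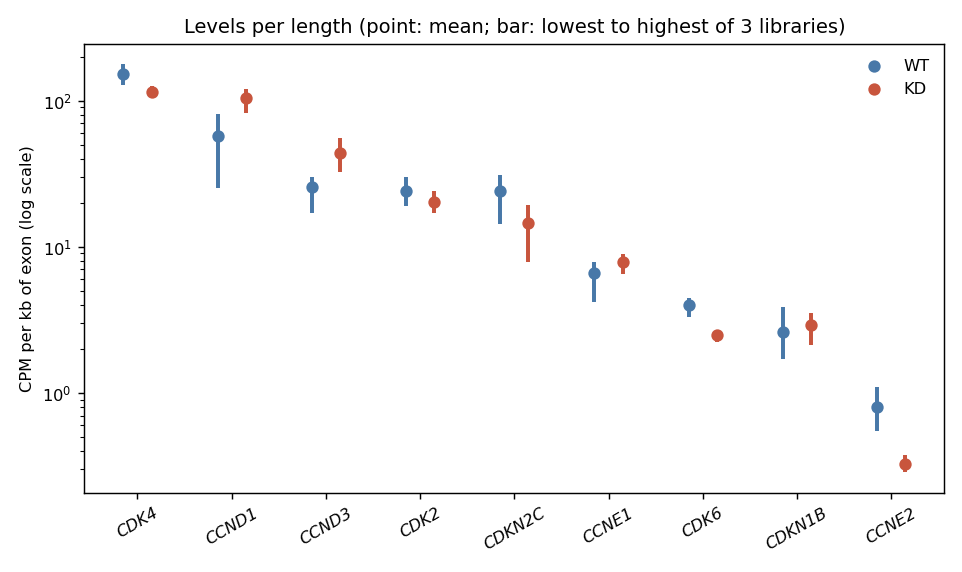
Level per length of 9 of the genes (CPM per kb of exon, log axis), with the mean as a point and the lowest to highest of 3 libraries as a bar, WT in blue and KD in red; CCND2, with libraries at 0, is left out. CDK4 is highest in both conditions, and CCND1 comes close to it in KD.

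Other genes of the pathway were counted in 6 lists, also chosen with earlier results of these data known. The shares of all tested genes again give scale only. Among 5 other CDK inhibitors, 2 were higher and 0 lower in KD with and without the replicate block, against 1.75% of tested genes higher and 0.839% lower without it. CDKN1A, for p21, was at 24.3, 62.8 and 77.9 CPM in WT and 241, 273 and 269 CPM in KD. CDKN2B, for p15, was at 14.4, 9.03 and 7.58 CPM in WT and 46.0, 34.9 and 30.4 CPM in KD. For both genes the conditions were far apart, and the log2 fold changes were 2.25 (SE 0.37, adjusted p = 0.0139, edgeR) for CDKN1A and 1.84 (SE 0.31, adjusted p = 0.0146, edgeR) for CDKN2B. The median of the list was 0.46. With WT replicate 2, KD replicate 2 or KD replicate 3 left out, 0 of the 2 passed, and 1 passed without WT replicate 3 or KD replicate 1.

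Of the 13 genes for RB1, its relatives, the E2F factors and their DP partners, 0 passed without the block and 2 were lower with it, against 4.42% of tested genes lower with the block, with a list median of −0.30 in log2 fold change. The smallest p-values were those of the RB relative RBL1 (log2 fold change −0.84, adjusted p = 0.158, edgeR), the repressor E2F7 (0.71, adjusted p = 0.181) and E2F2 (−1.02, adjusted p = 0.268), of which E2F2 passed with the block (adjusted p = 0.0189). At unadjusted p under 0.05 the count was 4, against 14.8% of tested genes. DESeq2 (6.28% of tested genes) and limma-voom (2.64%) called 0 without the block. With the block each of them called 1 higher and 3 lower, against 14.2% of tested genes in either direction. Of 15 tested genes for CDK activation and cyclin or p27 turnover, 0 passed in edgeR without the block. At an unadjusted p under 0.05 there was 1, against 14.8% of tested genes. The same gene passed in edgeR with the block (9.52% of tested genes), and in DESeq2 (6.28%) and limma-voom (2.64%) without it. It was CDK7, the kinase that activates CDKs by phosphorylation, at 11.4, 8.53 and 12.6 CPM in WT and 26.2, 22.2 and 23.0 CPM in KD (log2 fold change 1.13, adjusted p = 0.0578 without and 0.0112 with the block, edgeR). CKS1B, a cofactor of p27 degradation, had −0.35 (adjusted p = 0.5), and UHMK1, a kinase of p27, had −0.57 (adjusted p = 0.556) in the same edgeR test without the block, and −0.07 without WT replicate 1.

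Among 9 tested upstream regulators, 0 passed in edgeR, DESeq2 or limma-voom without the block. At an unadjusted p under 0.05 there was 1, against 14.8% of tested genes. That gene, FOXM1, a factor for genes of G2 and mitosis, had a log2 fold change of −0.74 (adjusted p = 0.330 without and 0.00985 with the block, edgeR). FOXO3, which can activate CDKN1B, had −0.55 (adjusted p = 0.384, edgeR), and the melanocyte factor MITF had −1.01 (adjusted p = 0.396, edgeR). MITF was at 211 CPM in WT replicate 1 and at 61.0 and 56.7 CPM in the other WT libraries, and without WT replicate 1 its value was −0.12. MYC, an activator of many growth genes, was not among the genes named by rule and was at 67.5 to 101 CPM in WT and 77.7 to 86.7 CPM in KD. FOSL1, also not named by rule, was at 79.8, 307 and 393 CPM in WT and 445, 489 and 466 CPM in KD. Its log2 fold change was 0.84 (adjusted p = 0.450) without and 1.11 (adjusted p = 0.0759) with the block in edgeR. With the block limma-voom called 2 of the list higher and 3 lower, and DESeq2 0 and 3, each against 14.2% of tested genes in either direction.

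The last lists hold genes that act after G1. Of 21 genes of S phase entry, all 21 had a log2 fold change below 0, also under upper-quartile scaling, with a median of −0.60. Of the 15605 tested genes, 7486 were above 0, and 7134 with upper-quartile scaling. In edgeR without the block 0 of the list passed, and 10 had an unadjusted p under 0.05, against 14.8% of tested genes in either direction. DESeq2 called 3 and limma-voom 2, against 6.28% and 2.64% of tested genes, and the blocked edgeR fit called 7 lower, against 4.42%. With the block DESeq2 and limma-voom each called 13 lower, against 14.2% of tested genes in either direction. TYMS, the thymidylate synthase, was at 252, 394 and 463 CPM in WT and 117, 177 and 198 CPM in KD, with a log2 fold change of −1.17 (adjusted p = 0.0658 without and 0.000576 with the block, edgeR). The replicative helicase subunit MCM6 had −0.77 (adjusted p = 0.0774 without and 0.0186 with the block, edgeR).

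Of 19 genes of G2 and mitosis, 8 fell without the block, against 0.839% of tested genes, and 17 fell with it, against 4.42%. The median was −1.22. TOP2A, which untangles DNA, was at 263, 127 and 133 CPM in WT and 39.8, 29.8 and 42.5 CPM in KD (log2 fold change −2.22, SE 0.31, adjusted p = 0.00582, edgeR). The mitotic kinase PLK1, the cyclin F gene CCNF and the kinetochore gene CENPF had −1.90, −1.73 and −1.52 (adjusted p = 0.0267, 0.0303 and 0.0321, edgeR). The count of 8 fell to 1 without WT replicate 3, KD replicate 2 or KD replicate 3, and to 2 without WT replicate 2 or KD replicate 1. The paper states that, in earlier work of its authors, STAG2 knockdown had no apparent effect on cell cycle progression in melanoma cells. Progression itself was not measured in these libraries.

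**Figure D4:**
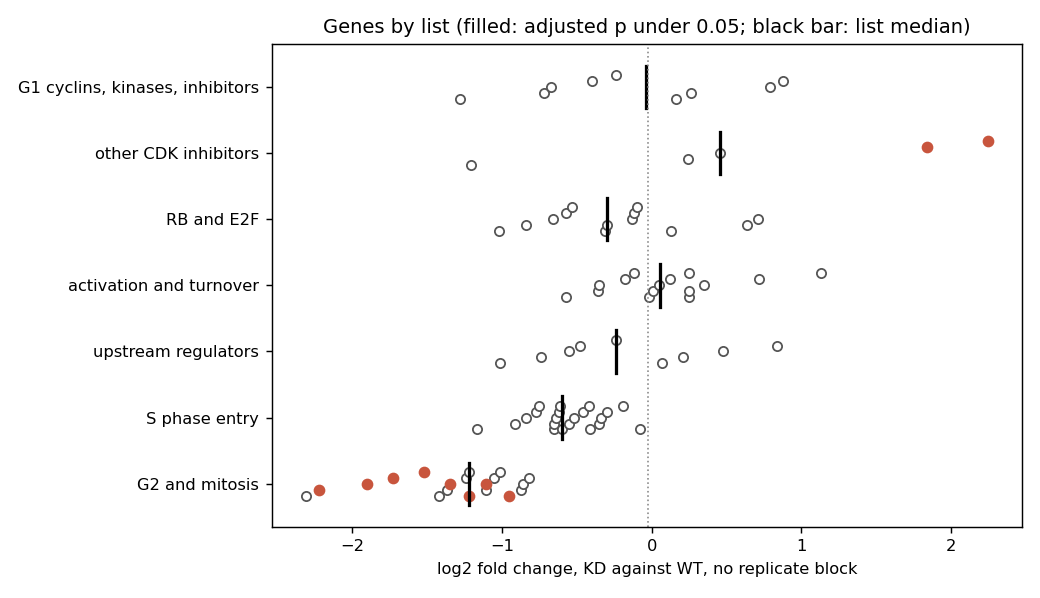
Log2 fold change of KD against WT (x axis, edgeR without the replicate block) of every tested gene in each list, with filled points for an adjusted p under 0.05, a black bar at the list median and a dotted line at −0.026, the median of all tested genes. The G1 genes spread to both sides of the line, 2 other CDK inhibitors lie at 1.84 and 2.25, and the S phase and mitotic genes lie below 0. CCND2 counts in its list's median and is not drawn.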

How the data were processed

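RNA-seq libraries of M14 cells (3 WT, 3 KD) were analysed. The authors aligned the sequence to hg19 (STAR 2.7.0f) and deposited the expected counts of each gene made by RSEM 1.3.0, without scaling. RSEM shares out ambiguous reads among genes by estimation, and the annotation and strand setting are not given in the sources used here. The reads carry no stated molecular identifiers, so floors cover counting error only.

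After rounding of these values, filterByExpr left 15605 genes. The quasi-likelihood test of edgeR 4.0.16 (R 4.3.3) compared the conditions with TMM scaling and Benjamini-Hochberg adjustment over all tested genes. Standard errors are the log2 fold change divided by the square root of F. DESeq2 1.42.0 and limma-voom (limma 3.58.1) were alternatives. Shares were tested by exact permutation. Lengths and hg19 positions come from GENCODE v44 lifted to GRCh37, which differs from the authors' gene models, and promoters from RefSeq. The scripts were tested on simulated data.

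Replicate numbers come from the labels. Deviations from the condition means correlated between same-numbered libraries with r = 0.599, 0.473 and 0.374 over 8932 genes, so the numbers were taken to pair the libraries. Of the unlike numbers, WT 2 with KD 3 gave 0.300 and WT 3 with KD 2 gave 0.191. The methods name no pairing, so the main fit has no block.

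The 10 genes and the lists were chosen with earlier results of these data known. Named beside the 10 and STAG2 are, per list, up to 4 called genes with the largest change and a mean of at least 1 CPM, or else the 3 with the smallest p, and the 3 genes most like the member with the smallest p. A gene that this rule names is not reported here. Markers, overlapping genes, MYC and FOSL1 were named after their values were seen.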

Additional observations from a re-analysis of the deposited data

How the results depend on the processing

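The number of the 10 genes called higher in KD was 0 without the replicate block and 2 with it, and 2 with no filter on low counts, in each case CCND1 and CCND3. With no filter their log2 fold changes were 0.88 and 0.78, no larger than in the main fit, and their SE was smaller. The number called lower was 0 without the block and 2 with it. Added after seeing the data were DESeq2 with the replicate block (2 higher, 3 lower), limma-voom with it (2 higher, 2 lower), and the blocked edgeR fit without each replicate pair (2 higher and 1 lower in each). The fits without a pair hold few libraries and check the calls only weakly. With libraries left out and no block, 0 to 1 were higher and 0 lower. The 1 was CCND3 without both libraries of replicate 1, the only pair left out without the block. CCNE1 changed sign without replicate 1, to −0.0028, or −0.02 with the block, and CDKN1B without WT replicate 2, to −0.08, or −0.13 with the block and without replicate 2. With libraries left out, CCNE1 ran from −0.0028 to 0.40, CDKN1B from −0.08 to 0.54, CDK2 from −0.39 to −0.06 and CDKN2C from −0.98 to −0.41. The causes were not tested. With all libraries in edgeR, the block changed the calls of CCND1, CCND3, CDK6 and CDKN2C only. In DESeq2 it also changed that of CDK4 (adjusted p = 0.294 without and 0.0419 with the block).

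Of all tested genes, 273 were higher and 131 lower. DESeq2 called 547 and 432, no filter 573 and 530, the replicate block 796 and 690, and an adjusted p under 0.01 called 116 and 21. With libraries left out the counts were 106 to 461 and 15 to 296. STAG2 had −2.12, missed an adjusted p of 0.01, and lay between −2.63 and −1.68 with libraries left out, where its adjusted p reached 0.168 without KD replicate 2, 0.152 without KD replicate 3, 0.0757 without WT replicate 2 and 0.0652 without WT replicate 3.

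Among the lists, 0 to 2 other CDK inhibitors were higher with libraries left out and 0 at an adjusted p under 0.01. For RB and E2F genes 2 were lower with the block. For activation and turnover 1 was higher in DESeq2, limma-voom, no filter and the block. Upstream regulators gave 1 higher and 2 lower with no filter, 1 lower with the block, and 0 to 1 lower with libraries left out. For S phase entry the lower calls were 3 in DESeq2, 1 with upper-quartile scaling, 2 in limma-voom, 4 with no filter, 2 with at least 10 counts in every library, 7 with the block and 0 to 3 with libraries left out. For G2 and mitosis they were 15 in DESeq2, 16 with no filter, 17 with the block, 1 at 0.01 and 1 to 9 with libraries left out. The difference in share ran from −0.124 to 6.52 points for CCND1 and from −6.52 to 0.0612 for CCND3 with libraries left out. CCND2 had 0 to 34 and CCNE2 41 to 133 expected counts a library, so depth limits the precision of both.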
